A study of Mus musculus with 146 samples.

Results

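The 45 genes described here encode the digestive machinery of the lysosome and were taken from a list: 16 subunits and accessory proteins of its proton pump, 8 cathepsins, 7 glycosidases, 6 genes of lipid and protein breakdown, 7 lysosomal membrane proteins and the transcription factor gene Tfeb. All 45 were among the 22721 genes counted, all were in the authors' filtered table of 10893 genes, and all were among the 12060 genes tested for differences between groups of libraries. The series measured polyadenylated RNA in bone marrow-derived macrophages, 1 library for each of 146 outbred mice of the strain Crl:CFW(SW)-US_P08 (CFW). Mice were 16 weeks old, 86 were labelled female and 60 male, and no treatment was given. Marrow cells became macrophages over 5 days of culture with L929-conditioned medium; L929 is a fibroblast line that releases the macrophage growth factor M-CSF. The libraries were made on 7 plates, 1 plate with 6 libraries and the others with 22 to 24, and the mice carried 28 collection date labels. The study asked how genes vary together in macrophages of genetically different mice.

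The lysosome is an acid compartment in which proteins, lipids and glycans taken up or recycled by the cell are cut to their building blocks, and macrophages are rich in it because they clear particles and dead cells. The acid is made by the V-ATPase, a rotary pump: its V1 sector splits ATP in the cytosol and turns a rotor that drives protons through the V0 sector in the membrane. Cathepsins, glycosidases and lipid hydrolases work in the acid lumen, and proteins such as LAMP1 and LAMP2 line the membrane. The transcription factor TFEB binds an E-box in the promoters of many lysosomal genes and raises their transcription when it enters the nucleus, a step set by phosphorylation rather than by the amount of its mRNA.

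The E-box sites are shown because an E-box is the kind of sequence that TFEB binds. Promoter windows of 300 bases, 250 before and 50 after the start, were available from RefSeq (build GRCm38.p6) for 38 of the 45 genes. Ctsb, Ctsh, Asah1, Atp6v1b2, Atp6v1c1, Atp6v1g1 and Atp6v1h were not among the matched genes. The 7 letters TCACGTG, searched on both strands and holding the E-box core CACGTG, were found in 11 of the 38 genes (28.9%), against 4.29% of the 27025 genes in the whole promoter table and 7.33% of the 8617 genes that were also in the authors' filtered table. The core CACGTG alone was in 12 of 38 (31.6%) and in 8.09% of all genes. For Atp6v0d1 and Atp6v0e the TCACGTG match reached the start or lay past it, and the core without the preceding T was in the Ctsl window. Other annotated starts can lie further upstream: exons of the GENCODE annotation touch the stretches printed for Ctsa, Gla and Mcoln1. They also touch the later of those printed for Atp6v0b and for Ctsd. The matches that lay wholly before the RefSeq start, in 9 genes, are printed in the sense of the gene. Matches are in capitals, and positions are GRCm38.p6 with the strand.
Atp6v1a, chr16:44139364-44139411, minus strand: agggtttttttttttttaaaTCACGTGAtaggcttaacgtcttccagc
Atp6v0b, chr4:117887350-117887376, minus strand: tgcgcgggggTCACGTGgggtcggcgc
Atp6v0b, chr4:117887332-117887358, minus strand: ggtcggcgcaTCACGTGcgccggtcag
Ctsa, chr2:164833750-164833772, plus strand: gagcaaactgTCACGTGAtgcag
Ctsd, chr7:142388056-142388077, minus strand: tccccCACGTGAcctgtatcca
Ctsd, chr7:142387909-142387936, minus strand: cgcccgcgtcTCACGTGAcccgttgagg
Gaa, chr11:119267802-119267848, plus strand: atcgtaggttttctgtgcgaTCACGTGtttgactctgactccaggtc
Gla, chrX:134601216-134601243, minus strand: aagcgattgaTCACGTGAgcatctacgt
Gla, chrX:134601183-134601210, minus strand: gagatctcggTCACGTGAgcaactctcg
Glb1, chr9:114401009-114401055, plus strand: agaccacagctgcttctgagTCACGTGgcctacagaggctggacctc
Lamp1, chr8:13159079-13159160, plus strand: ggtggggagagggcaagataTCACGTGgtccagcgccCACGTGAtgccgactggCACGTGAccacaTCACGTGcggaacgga
Mcoln1, chr8:3500437-3500463, plus strand: gtcgcgcttgTCACGTGttcagttcag
Mcoln1, chr8:3500463-3500490, plus strand: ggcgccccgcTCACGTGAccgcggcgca

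Lamp1 held 4 matches within 82 bases, the densest run in the set. A match is a run of letters and not a measured binding site, and binding was not measured in these samples.

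Libraries held from 14.5 M counts to 120.9 M counts with a median of 43.8 M. No member had fewer than 153 counts in any library, a count reached by Atp6v0c. Macrophage markers were abundant: Lyz2 ran from 6299 to 18798 counts-per-million (CPM) and Csf1r from 1352 to 2093 CPM. The lymphocyte markers Cd3e, Cd3g, Cd79a and Ms4a1 had medians under 1 CPM, while Cd79b had a median of 2.08 CPM, from 0.525 to 6.54. The 10 granulocyte precursor markers summed to 76.2 to 1772 CPM, with Camp under 1 CPM at the median. In 6 libraries the counts of Y-linked genes went against the labelled sex. Female library 51, on plate 4, was the lowest library for 6 members and for the summed share of all 45. Because each library is bulk RNA, fewer cells of a type and less RNA per cell cannot be told apart.

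The 45 genes took 7.23% of all counts at the median, with 5.37% in the lowest library (female 51) and 9.15% in the highest (male 5, plate 10). The 8 cathepsins alone took 3.39% at the median. The membrane proteins took 1.83%, the lipid and protein breakdown genes 1.18%, the glycosidases 0.291%, the V0 sector 0.252% and the V1 sector 0.245%. Tfeb took 0.00568%. Levels were also divided by exon length, taken over all annotated exons of a gene together. The highest median was then that of Ctsd, the main aspartic protease, at 5354 CPM per kb. It was followed by Psap, the precursor of the saposins that present sphingolipids to their hydrolases, at 3796 CPM per kb. Next on the same scale came the cysteine proteases Ctsb at 2311 and Ctss at 1780, the glycoprotein Gpnmb at 1734 and the macrophage scavenger protein Cd68 at 1373 CPM per kb. The lowest were Atp6v0c at 5.39, the cation channel gene Mcoln1 at 6.13, Tfeb at 10.0, the sphingomyelinase gene Smpd1 at 11.6, Atp6v1h at 15.9 and Ctsh at 17.5 CPM per kb. Per kb, 43 of the 45 lay above the median gene of the filtered table (7.91 CPM per kb) and 33 lay in its top 10%. Counts of Ctsd, Ctsl and Atp6v1g1 are uncertain, since 27.1%, 27.1% and 27.2% of the 50-base stretches in their exons also occur in other genes' transcripts.

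**Figure D1:**
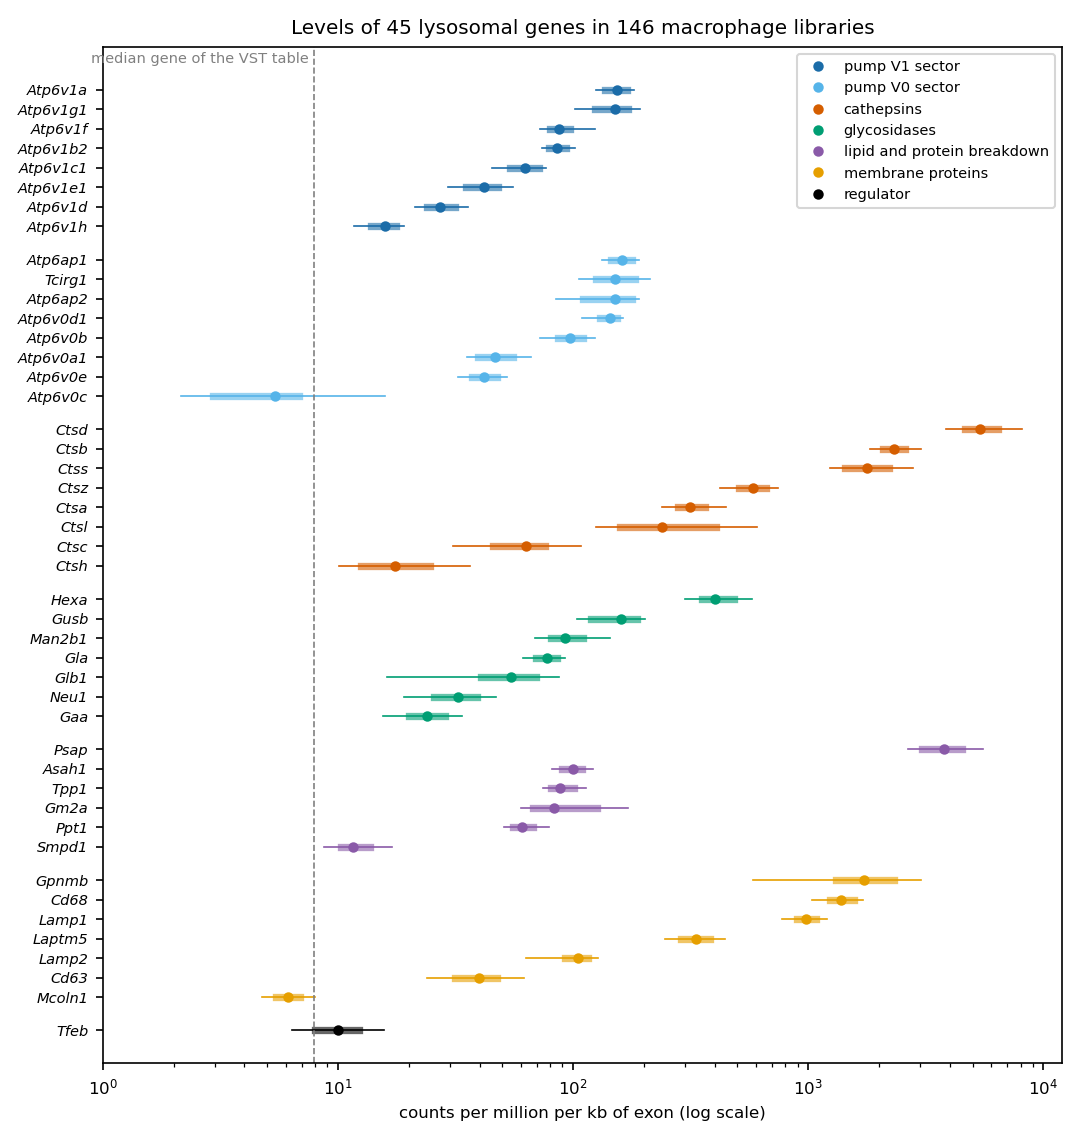
Level of each of the 45 genes in 146 libraries, in CPM per kb of exon on a log axis, grouped by role. Points are medians, thick bars the 10th to 90th percentile, thin lines the lowest to highest library, and the dashed line the median gene of the authors' filtered table; Ctsd, Psap and Ctsb are highest and Atp6v0c lowest.

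Spread across mice was narrow for most members. Spread was taken as the 90th percentile of CPM divided by the 10th, and it had a median of 1.34 over the 45 genes, against 1.41 over the filtered table, and was under 1.5 in 32 genes. The narrowest were Atp6v1b2 and Atp6v0d1, both at 1.18, followed by Lamp1 at 1.2, Asah1 at 1.21, and Ppt1 and Atp6v1f at 1.22. The widest were Ctsl at 2.57, Atp6v0c at 2.32, Ctsh at 1.96, Gm2a at 1.86, Gpnmb at 1.77 and Glb1 at 1.71. In all, 17 of the 45 had a wider spread than the median gene.

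In the V1 sector, Atp6v1a, the catalytic subunit that binds ATP, had 753 CPM in the lowest library, 932 at the median and 1099 in the highest. Atp6v1b2, the other nucleotide-binding subunit of macrophages, had 389.6, 451 and 542 CPM in the same order. Atp6v1h, a regulatory subunit, was the lowest of the sector per kb and had 114, 155 and 187 CPM. Its exon length, 9.75 kb, was the longest of all members. Without division by length, Atp6v1d and Atp6v1f had lower medians, 125 and 92.2 CPM. The other V1 genes, for the stalk, rotor and accessory subunits, were Atp6v1c1 (252 to 430 CPM), Atp6v1d (97.9 to 164), Atp6v1e1 (120.9 to 228), Atp6v1f (76.9 to 131) and Atp6v1g1 (115 to 218).

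In the V0 sector, Tcirg1, the a3 subunit that sends the pump to lysosomes and to the osteoclast border, had 489 CPM in the lowest library, 695 at the median and 978 in the highest. Atp6v0d1, which couples the rotor to the ring, had 196, 258 and 292 CPM. Atp6ap2, an accessory protein also known as the prorenin receptor, varied more, with 222, 393 and 499 CPM. The ring subunit gene Atp6v0c had 7.25 CPM in the lowest library, 18.3 at the median and 53.6 in the highest, the lowest level per kb of all members. Per kb, 6 pump genes lay close together: Atp6ap1 162, Atp6v1a 154, Tcirg1 151, Atp6v1g1 151, Atp6ap2 150.3 and Atp6v0d1 144 CPM per kb, with ranges that overlapped throughout. The rest of the sector ran from 232 to 436 CPM for Atp6v0a1, 148 to 253 for Atp6v0b, 120 to 194 for Atp6v0e and 403 to 579 for Atp6ap1. Of 9 isoform genes outside the list, Atp6v0a4, Atp6v1b1, Atp6v1c2, Atp6v1e2 and Atp6v1g3 had medians of 0 CPM, while Atp6v0d2, an isoform of osteoclasts and macrophages, ran from 1.33 to 172 CPM with a median of 22.7.

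Among the cathepsins, Ctsb had 11063 CPM in the lowest library, 13981 at the median and 18273 in the highest. Ctsd had 9038, 12587 and 19142 CPM in the same order. Both are endoproteases, which cut proteins within the chain. Ctsl, a cysteine protease, had 814, 1545 and 3916 CPM, the widest spread of the set. Ctss, which trims the invariant chain in antigen presentation, had 1679, 2417 and 3772 CPM. Ctsc, a dipeptidyl peptidase that activates granule proteases, had 179.8, 364 and 629 CPM, and Ctsh had 45.2, 78.9 and 164 CPM. Ctsa ran from 1128 to 2101 CPM and Ctsz from 606 to 1067 CPM.

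Among the glycosidases, Hexa, the alpha subunit of the hexosaminidase that trims GM2 ganglioside, had 594 CPM in the lowest library, 800.1 at the median and 1152 in the highest. Gusb, which removes glucuronic acid, had 474, 727 and 923 CPM. The alpha-glycosidases Gaa and Gla ran from 74.4 to 161 and from 201 to 301 CPM, the sialidase Neu1 from 71.5 to 175 CPM and the mannosidase Man2b1 from 551 to 1151 CPM. Glb1, the beta-galactosidase, had 48.4, 164 and 263 CPM. Its values left a gap: 11 libraries lay between 48.4 and 101 CPM, and the other 135 began at 120.3 CPM. The 11 came from 6 plates and 8 date labels, and 5 of them were labelled female.

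Among genes of lipid and protein breakdown, Gm2a, the cofactor that lifts GM2 ganglioside to hexosaminidase, had 249 CPM in the lowest library, 342 at the median and 709 in the highest. Psap had 7297, 10415 and 15246 CPM. Asah1, the acid ceramidase, and Ppt1, a thioesterase that removes fatty acids from proteins, were steady, at 274 to 413 and 187 to 290.5 CPM. Tpp1 ran from 383 to 583 CPM and Smpd1 from 29 to 56.6 CPM.

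Among the membrane proteins, Lamp1 had 2061 CPM in the lowest library, 2604 at the median and 3215 in the highest. Gpnmb, a glycoprotein that macrophages raise under lysosomal stress, had 3788, 11297 and 19741 CPM. Its lowest value was female 51, and the next library had 6538 CPM. Lamp2 ran from 599 to 1220.1 CPM, Cd68 from 1298 to 2148, Laptm5 from 932 to 1682, the tetraspanin Cd63 from 87.8 to 227 and Mcoln1 from 35.7 to 60.3 CPM. Tfeb, the regulator, had 36.2, 56.8 and 89.3 CPM.

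Levels differed between plates for 40 of the 45 genes (edgeR quasi-likelihood test, adjusted p under 0.05 over all genes), against 74.8% of all genes tested. Plate is the batch in the labels and partly shares its libraries with collection dates, so handling and groups of mice cannot be told apart. Atp6v0c moved most. On plate 1 it had a mean of 39.5 CPM ± 10.8 (SD, 6 libraries), on plate 10 a mean of 10.0 ± 1.47 (24 libraries) and on plates 2, 3, 4 and 7 means from 17.4 to 19.9. The ranges of plates 1 and 10 did not overlap: the lowest library of plate 1 had 26.7 CPM and the highest of plate 10 had 12.3. Plate 8 was the only other plate whose libraries reached over 30 CPM, and it spread from 9.82 to 36.6 (adjusted p = 2.17e-35). Plate accounted for 72.5% of the variance of Atp6v0c.

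Atp6ap2 had a mean of 426 CPM ± 33.96 on plate 3 and 314 ± 40.1 on plate 10 (adjusted p = 3.68e-13), and the ranges of these plates overlapped. Ctsz, a carboxypeptidase, had 904 ± 85.3 on plate 3 and 749 ± 70.8 on plate 1 (adjusted p = 9.84e-10). Ctsd had 14518 ± 2237 on plate 3 and 11087 ± 722 on plate 1 (adjusted p = 4.46e-07). Smpd1 and Gm2a were highest on plate 10, with Gm2a at 438 CPM there and 315 on plate 7 (adjusted p = 4.43e-07). Plate 10 held the highest plate mean for 16 members and plate 3 for 14, while plate 1 held the lowest for 15. The genes not called were Atp6v0e, Atp6v1c1, Glb1, Atp6v1b2 and Ctsh, with adjusted p from 0.0717 to 0.538. Plate accounted for 19.9% of the variance of the median member and 15.6% of that of the median gene, and date label for 38.5% and 40.2%.

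**Figure D2:**
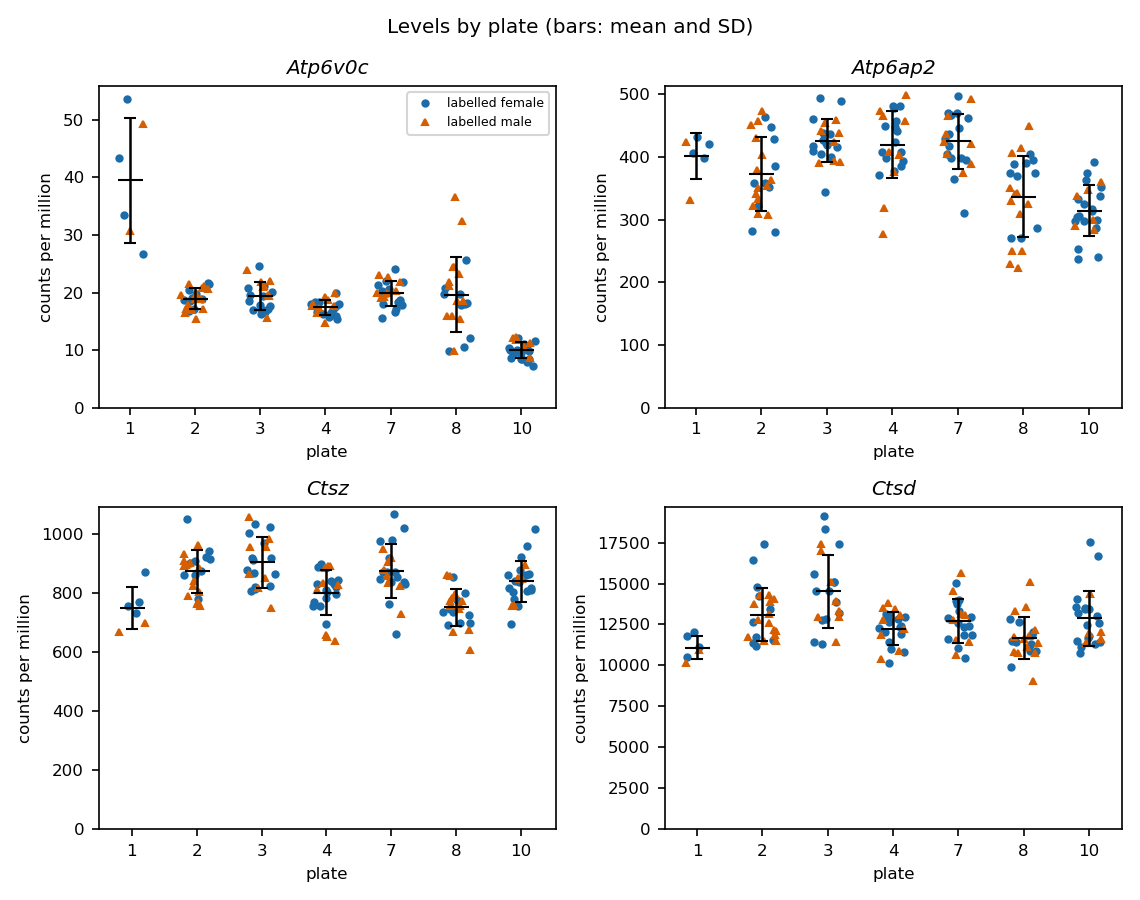
CPM of Atp6v0c, Atp6ap2, Ctsz and Ctsd by plate. Each point is 1 library (circles labelled female, triangles labelled male) and bars show the plate mean and SD; Atp6v0c is high on plate 1 (mean 39.5), low on plate 10 (10.0), and wide on plate 8.

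No member was called between labelled sexes (edgeR quasi-likelihood test with plate as covariate, adjusted p over all genes, 0 of 45, against 5.02% of all genes). At an unadjusted p under 0.05 there were 11 members, or 24.4%, and 20% of all genes. DESeq2 called 0, against 5.85% of all genes, and limma voom called 1, Atp6v1a, against 5.95%. The nearest was Atp6v1a, with 761, 911 and 1099 CPM (lowest, median, highest) in 86 females and 753, 948 and 1091 in 60 males. Its fitted log2 difference, male minus female, was 0.06 ± 0.02 (SE), adjusted p = 0.0588. The ranges overlapped almost entirely. Ctsc leaned the other way, with a median of 377 CPM in females and 345 in males and a log2 difference of -0.13 ± 0.04 (SE), adjusted p = 0.0775. In 6 of 7 plates its mean was lower in males. When the 6 libraries whose Y-linked counts went against their label were left out, 4 members were called: Atp6v1a (0.06), Gla (0.07) and Atp6v0c (0.12) higher and Ctsc (-0.14) lower in males. In that fit 7.69% of all genes were called. A sex difference that varied between plates was called for no member (0 of 45 by edgeR, 1 at an unadjusted p under 0.05, 0 by limma voom, against 0.0415% of all genes).

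Lysosomal genes outside the 45 gave a few calls between the sexes. In the same fit 5.02% of all genes were called in either direction and 2.17% as higher in males. Among other hydrolases, Acp2 (log2 difference 0.10 ± 0.02, adjusted p = 0.0011) and Lgmn (0.12 ± 0.04, adjusted p = 0.0483) were higher in males. Of 18 other membrane proteins 5 were higher and 0 lower, among them the cholesterol transporter Npc1 (0.08 ± 0.02, adjusted p = 0.0109). Mpo, a granulocyte precursor gene, was lower in males (-0.54 ± 0.13, adjusted p = 0.00651). Of 4 tested stromal markers 3 were lower in males and 0 higher. Of those 3, Col1a1 and Col1a2 were near the floor, with medians of 0.544 and 0.896 CPM and 0 CPM in the lowest library. Pdgfrb, the other, had a median of 4.58 CPM. The part of granulocyte precursors or stromal cells in these differences was not tested.

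The next measurements concern how the genes varied together. Values were the authors' variance-stabilised log2 values with plate and labelled sex removed, and Spearman's rho was taken over the 146 libraries. Mice of the same date can be alike, so the values describe these libraries. Over the 990 pairs of members the median rho was 0.17, 72.5% were positive and 32.9% were over 0.3. Over all pairs of genes in the filtered table the median was -0.002, 49.7% were positive and 11.6% were over 0.3. Within single plates the median over member pairs ran from 0.11 to 0.24.

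**Figure D3:**
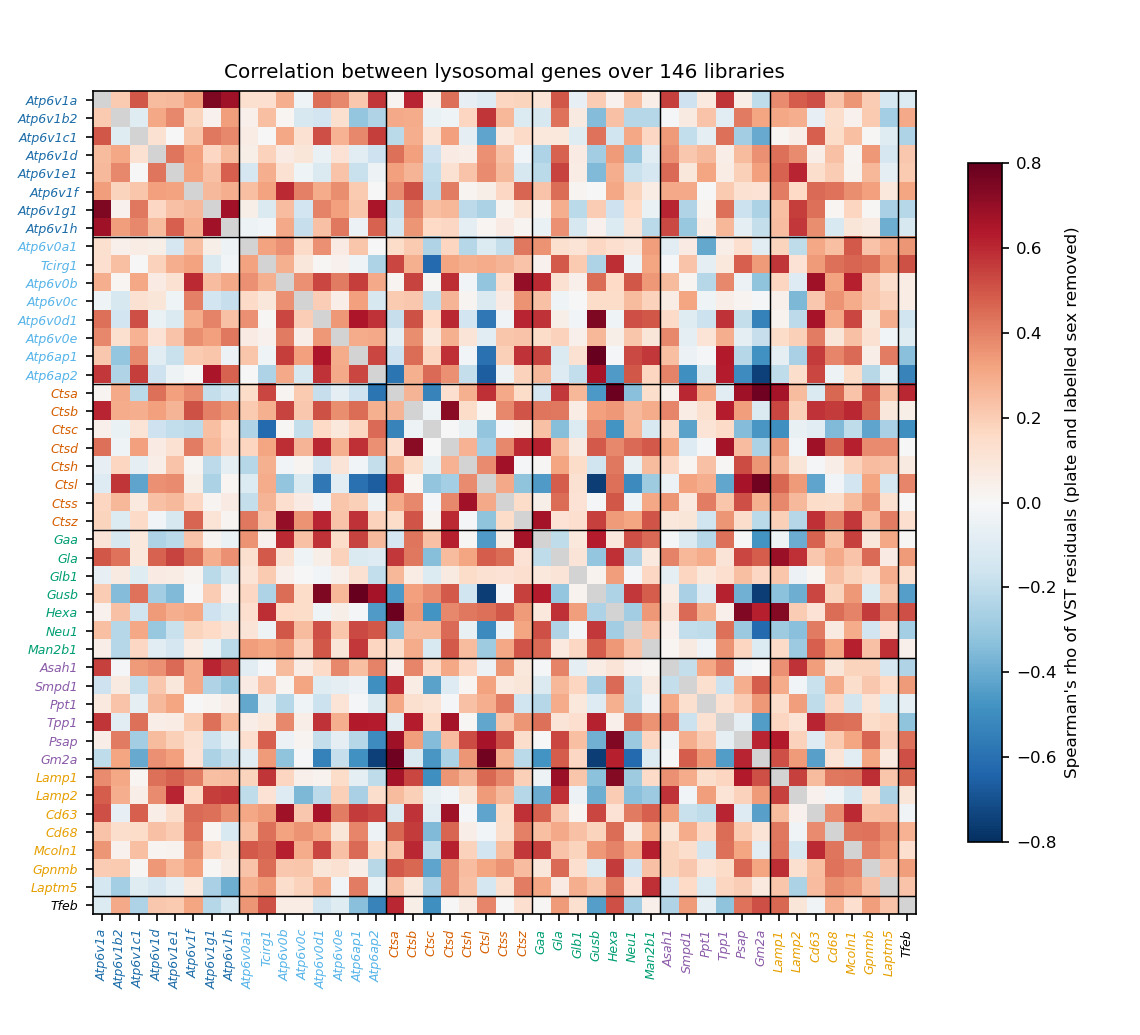
Spearman's rho between each pair of the 45 genes over 146 libraries, with plate and labelled sex removed, ordered and boxed by role; red is positive and blue negative. Most boxes are mainly red (72.5% of pairs positive), and the darkest blue cells are Gm2a and Ctsl against Gusb and Atp6ap2, and Ctsc against Tcirg1.

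Each role group held together unevenly. The 21 pairs of membrane proteins had the highest median rho, 0.34, with 18 positive and 0 under -0.3. The 28 pairs within V1 had a median of 0.30, the 28 within V0 also 0.30, and the 64 pairs between the sectors 0.13. The sectors are the soluble and the membrane part of the pump, and these medians are given with no test. Cathepsin pairs had a median of 0.15, with a range from -0.54 to 0.72, and glycosidase pairs 0.10, from -0.31 to 0.63. The 56 pairs of a cathepsin with a glycosidase had a median of 0.26.

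In V1 the closest pair was Atp6v1a with the stalk subunit gene Atp6v1g1 (rho 0.75, Pearson r 0.78, r 0.77 without the 2 libraries farthest from the median of the first gene named, 0.44 to 0.82 within plates). In the limma fit over all genes with Atp6v1a as predictor this pair had an adjusted p of 2.02e-25. In V0 the closest were Atp6v0d1 and the accessory gene Atp6ap1 (rho 0.65, r 0.65, 0.62 without 2 libraries, adjusted p = 1.63e-15). Among cathepsins they were Ctsb and Ctsd (rho 0.72, r 0.70, 0.69 without 2 libraries, adjusted p = 4.17e-18). Ctsh and Ctss, both cysteine proteases of antigen-presenting cells, followed at rho 0.67. Among glycosidases the closest were Gaa, which breaks down glycogen, and Gusb (rho 0.63, r 0.64, 0.63 without 2 libraries, adjusted p = 7.54e-16). Among membrane proteins they were Cd63 and Mcoln1 (rho 0.59, r 0.61, 0.60 without 2 libraries, adjusted p = 3.5e-13), and in lipid breakdown Psap and Gm2a (rho 0.61, r 0.65, 0.64 without 2 libraries, adjusted p = 2.17e-16).

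Across groups, the highest pairs joined cathepsins, glycosidases, pump genes and the cofactor gene Gm2a. Ctsa, the protective protein that keeps sialidase and beta-galactosidase stable, had rho 0.78 with Hexa (r 0.80, 0.79 without 2 libraries, adjusted p = 4.65e-30), 0.78 with Gm2a (r 0.81, 0.80 without 2 libraries) and Ctsl had 0.77 with Gm2a (r 0.79, 0.77 without 2 libraries). Atp6ap1 with Gusb was the closest pair of the set (rho 0.80, r 0.80, 0.80 without 2 libraries, adjusted p = 2.58e-28), and Atp6v0d1 with Gusb had rho 0.74. The lowest pairs set Gm2a and Ctsl against Gusb and Atp6ap2. Gusb had rho -0.76 with Gm2a (r -0.76, -0.74 without 2 libraries, adjusted p = 6.11e-26) and -0.75 with Ctsl, and Atp6ap2 had -0.75 with Gm2a and -0.66 with Ctsl. Tcirg1 with Ctsc (-0.62) and Neu1, the sialidase, with Gm2a (-0.62) completed the 6 lowest. With Atp6v1a and Atp6v1g1 above, these are the 6 highest and 6 lowest pairs, and each of the 12 kept its sign within all 7 plates, with date label in place of plate, and without female 51.

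**Figure D4:**
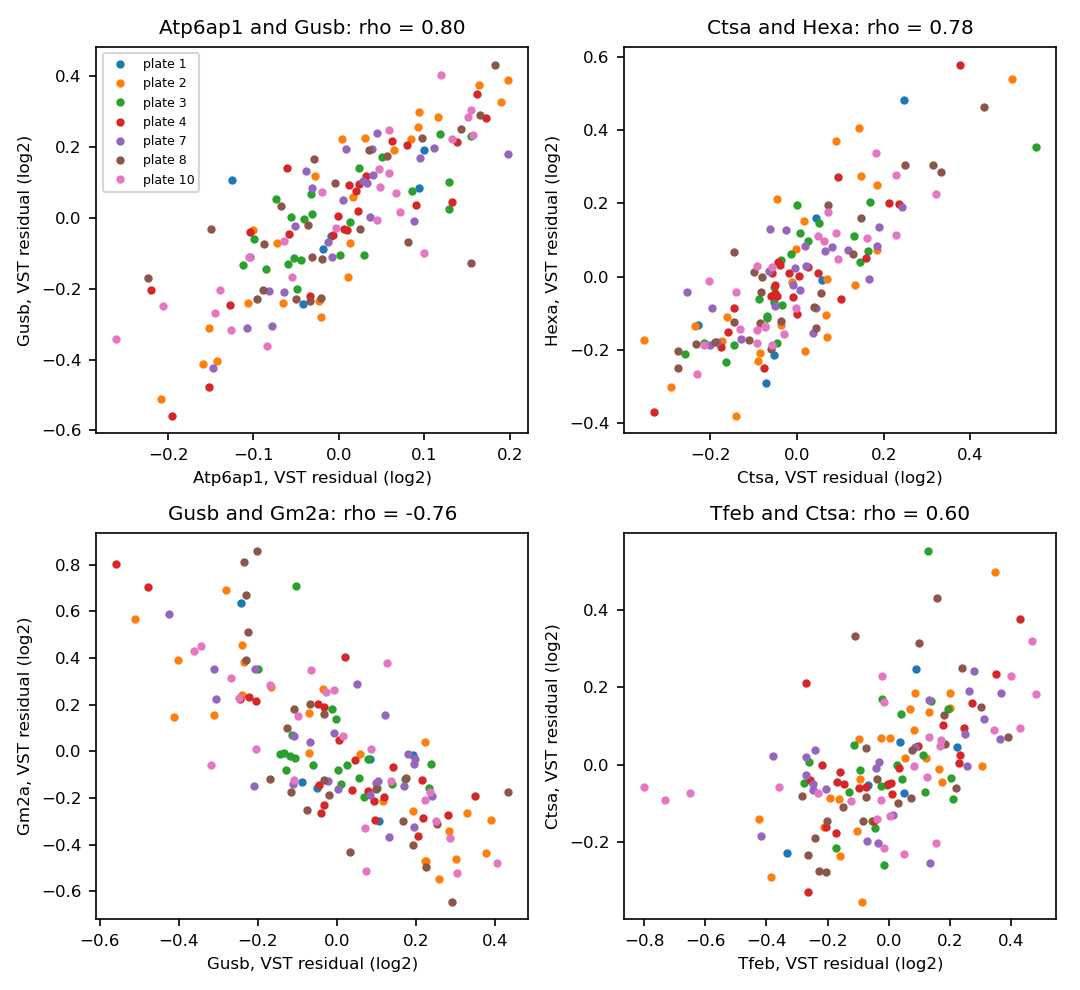
Variance-stabilised log2 values with plate and labelled sex removed, for 4 pairs of genes; each point is 1 of 146 libraries, coloured by plate. Atp6ap1 with Gusb (rho 0.80) and Ctsa with Hexa (0.78) rise together, Gusb with Gm2a (-0.76) run opposite, and Tfeb with Ctsa (0.60) is looser.

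These genes also differed in sign along the main axis of variation of other genes. The first principal component of the non-member genes, holding 21.6% of their variance, had Pearson r 0.94 with Gm2a, 0.85 with Ctsl and 0.75 with Ctsa, and -0.85 with Gusb and -0.73 with Atp6ap2. With that component removed as well, rho for Gusb and Gm2a went from -0.76 to 0.20 and for Ctsl and Gm2a from 0.77 to -0.05, while Atp6ap1 with Gusb stayed at 0.72, Ctsa with Hexa at 0.61 and Ctsb with Ctsd at 0.72. The signs of 9 of the 12 extreme pairs remained, and those of 8 with 5 components removed. The median over all member pairs was 0.21 with 1 or with 5 components removed.

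The 8 osteoclast markers summed to 42.2 to 307 CPM, and their mean z-score had r over 0.3 with 13 members and under -0.3 with 11, against 21.8% and 23.6% of all genes. Among the genes of the lowest pairs it had r 0.74 with Ctsl, 0.70 with Gm2a, -0.53 with Gusb and -0.65 with Atp6ap2. The 5 lymphocyte markers named above were all but Cd79b under 1 CPM at the median. Their mean z-score had r 0.59, 0.64, -0.60 and -0.57 with Ctsl, Gm2a, Gusb and Atp6ap2. Among the osteoclast markers, Ocstamp, Calcr and Oscar had medians under 1 CPM. The mean z-score of the granulocyte precursor markers had r under -0.3 with 14 members and over 0.3 with 2, against 10.6% and 9.87% of all genes. Its extremes were -0.65 with Cd63 and 0.47 with Ctsl. The macrophage markers Lyz2, Csf1r, Adgre1 and Mertk, a choice of 4 made after values were seen, gave a mean z-score with positive r for 35 members, over 0.3 for 17 and under -0.3 for 3, against 10.2% and 10.9% of all genes. Its extremes were 0.63 with Cd63 and -0.36 with Gm2a. The part of these cell types in the correlations was not tested. The log2 total count had r from -0.196 to 0.199 with the members.

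Taken one at a time as predictors of all 10892 other genes in limma fits with plate and sex as covariates, the members differed in how many other members they were associated with. For Ctsb, 34 of 44 other members were associated positively and 0 negatively, against 9.77% of all genes positively (17.9% in either direction). In 43 of 45 fits members were positive more often than all genes, with a median of 45.5% of members and 25.4% of all genes. The exceptions were Ctsc, with 5 positive and 16 negative (11.4% of members positive against 29.5% of all genes), and Glb1, with 0 (0.110% of all genes positively). Ctsc had 57.9% of all genes in either direction.

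The other fits are given as the number of 44 members associated positively, with the share of all genes positive in the same fit in brackets. In the V1 sector there were 18 with Atp6v1b2 (20.4%), 17 with Atp6v1c1 (25.9%), 19 with Atp6v1d (18.4%), 23 with Atp6v1e1 (22.8%), 29 with Atp6v1f (13.2%), 19 with Atp6v1g1 (26.2%) and 17 with Atp6v1h (22.3%). Atp6v1f, a small subunit of the central rotor, was the V1 gene with the most members and the smallest share of all genes. In the V0 sector there were 16 with Atp6v0a1 (16.9%), 25 with Tcirg1 (25.4%), 25 with Atp6v0b (26.3%), 10 with Atp6v0c (9.32%), 23 with Atp6v0d1 (33.8%), 19 with Atp6v0e (9.07%), 23 with Atp6ap1 (31.8%) and 20 with Atp6ap2 (36.3%). Atp6v0c, the gene that moved most with plate, had the fewest of the pump. Among the cathepsins there were 22 with Ctsa (33.5%), 16 with Ctsh (20.9%), 17 with Ctsl (35.4%), 22 with Ctss (16.5%) and 22 with Ctsz (24.2%), and among the glycosidases 19 with Gaa (31.6%), 28 with Gla (28.7%), 22 with Gusb (36.4%), 26 with Hexa (32.8%), 17 with Neu1 (31.6%) and 19 with Man2b1 (18.7%). Gla, which removes galactose from glycolipids, had the most of these. In lipid and protein breakdown there were 20 with Asah1 (19.9%), 14 with Smpd1 (27.4%), 13 with Ppt1 (19.9%), 22 with Tpp1 (26.3%), 22 with Psap (32.6%) and 17 with Gm2a (37.1%), and among membrane proteins 15 with Lamp2 (27.2%), 28 with Cd63 (28%), 26 with Cd68 (11.5%), 27 with Mcoln1 (18.2%), 24 with Gpnmb (16.6%) and 20 with Laptm5 (17.9%). For Gm2a and Ctsl as many members were negative as positive, 17 each.

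**Figure D5:**
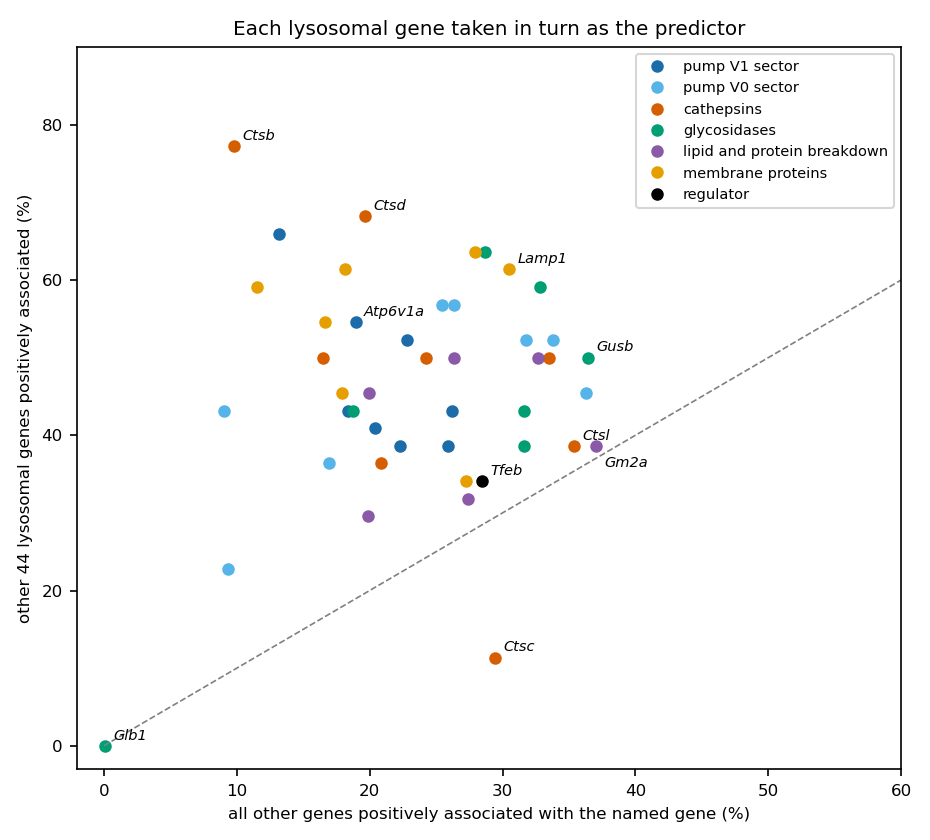
Share of the other 44 lysosomal genes positively associated with each gene (vertical, %) against the share of all other genes (horizontal, %), from limma fits over 146 libraries at adjusted p under 0.05; the dashed line marks equal shares. Ctsb lies far above it (77.3% against 9.77%), Tfeb close to it (34.1% against 28.5%), Ctsc below it and Glb1 at the origin.

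For the catalytic pump subunit Atp6v1a, 24 members were associated positively and 1 negatively, against 35.5% of all genes in either direction, 19% positively and 16.5% negatively. After Atp6v1g1 and Atp6v1h the closest were Ctsb (0.08 ± 0.01 log2 units per SD of Atp6v1a, SE, adjusted p = 1.86e-12) and Atp6ap2 (0.13 ± 0.01, adjusted p = 3.77e-12). Gm2a was the negative one (-0.09 ± 0.03, adjusted p = 0.0149). On log2(CPM + 1) values the split was 21 positive and 8 negative, against 26.9% of all genes positively in that fit. Of 25 other hydrolases 12 were positive and 0 negative, and of 18 other membrane proteins 7 and 1, led by Ostm1, a partner of a lysosomal chloride transporter (adjusted p = 3.47e-15). Rragc, a GTPase that brings mTORC1 to the lysosome, was also among its closest genes (r 0.67, rho 0.65).

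For Ctsd, 30 members were positive and 2 negative, against 38.3% of all genes in either direction, 19.7% positively and 18.7% negatively. The closest were Cd63 (0.17 ± 0.01 per SD of Ctsd, adjusted p = 3.73e-18), Ctsb and Tpp1, a tripeptidyl peptidase. Ctsl (-0.14 ± 0.05, adjusted p = 0.00959) and Gm2a (-0.08 ± 0.03, adjusted p = 0.0205) were negative. Of the 25 other hydrolases 15 were positive and 0 negative. With the granulocyte precursor markers as a covariate, 27 members were positive and 0 negative, against 22.8% of all genes in either direction and 11.7% positively in that fit.

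For Lamp1, 27 members were positive and 4 negative, against 60.9% of all genes in either direction, 30.5% positively and 30.4% negatively. Hexa (0.15 ± 0.01 per SD of Lamp1, adjusted p = 1.76e-23), Ctsa, Gla and Psap were closest. Ctsc (-0.16 ± 0.02, adjusted p = 7.44e-12), Gusb, Neu1 and Atp6ap2 were negative. With the first component of the other genes as covariate, 34 were positive and 1 negative, against 14.3% of all genes positively, and the slopes of Gusb and Atp6ap2 turned to 0.051 and 0.065. Of the 25 other hydrolases 16 were positive and 2 negative, with Npc2, a carrier of cholesterol in the lumen, first (adjusted p = 3.6e-18).

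For Tfeb, 15 members were associated positively and 10 negatively, against 57.3% of all genes in either direction, 28.5% positively and 28.8% negatively. The share of members, 56.8%, was near that of all genes, and the positive share was 34.1%. The closest positive members were Ctsa (0.10 ± 0.01 per SD of Tfeb, r 0.54, rho 0.60, adjusted p = 2.35e-10), Hexa (0.11 ± 0.01, adjusted p = 8.06e-10), Tcirg1 and Gm2a. Negative were Atp6ap2 (-0.10 ± 0.02, rho -0.53, adjusted p = 2.22e-08), Ctsc and Gusb. On log2(CPM + 1) values the split was 12 positive and 14 negative, against 54.2% of all genes in either direction in that fit. With the first component as covariate it was 15 and 4, against 42.3%, and with 5 components 1 member was called, Atp6v0b, negatively, and the share of all genes was 8.69%. Of 18 genes of the TFEB family and mTORC1 control, 6 were positive and 3 negative, to be read against the shares of all genes above. The positive ones were led by Flcn, the folliculin that acts on TFEB through the Rag GTPases (r 0.63, adjusted p = 1.42e-14), and Tfe3, its close relative (r 0.57, adjusted p = 3.88e-11), was among them.

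The genes with a TCACGTG match, among them Atp6v0d1 and Atp6v0e, whose matches are not printed, were also set beside Tfeb mRNA. The 11 genes with TCACGTG had a median rho of 0.06 with Tfeb, from -0.16 to 0.60, with 3 called positive and 0 negative. The 26 genes without it, Tfeb left out, had a median of 0.17, from -0.53 to 0.52, with 11 positive and 6 negative. Among themselves, the genes with the site gave a median rho of 0.23 over 55 pairs, and those without it 0.15 over 351 pairs. These are descriptions of 38 genes, and the share of genes called is to be read against the 57.3% given for Tfeb.

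As predictor Glb1, whose promoter holds the site, was associated with 0 of 44 members (limma, adjusted over all genes; 8 at an unadjusted p under 0.05), against 0.312% of all genes, and its highest rho to a member was 0.33, with Hexa. The gene closest to it, looked at after its values were seen, was Crtap, which encodes a collagen-modifying protein and lies on the opposite strand of chromosome 9 at 114375134 to 114390675, 10401 bases before Glb1 (114401076 to 114474898, GRCm38, GENCODE M21). Their Pearson r was 0.53 and rho 0.63 over 146 libraries. Without the 2 libraries farthest from the median of Glb1 r was 0.67, and within plates it ran from 0.12 on plate 7 to 0.91 on plate 1. Trak1, on the same chromosome at 121297502 to 121474918, was next (r 0.43). Crtap is not the nearest gene of the filtered table: that is Tmppe, which overlaps Glb1 and had r -0.13 with it.

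Outside the list, the gene closest to the members as a whole was Sgpl1, which breaks down sphingosine phosphate, with a mean r of 0.31 to the 45 genes and a positive r with 42 of them. Akr1a1, Pld3, a nuclease of the lysosome, Tcn2, the vitamin B12 carrier, and Cyba, the NADPH oxidase subunit, followed with mean r from 0.25 to 0.26. Vapb, Pnpla7, Cdo1 and the macrophage marker Adgre1 were also among the 10 highest. The lowest were Pnn (-0.22), Lmnb1, Mdm1, Nxpe3, Alms1 and Hnrnpu, among which Pnn, Lmnb1 and Hnrnpu encode nuclear proteins. By single genes, Tfeb was closest to Pip5k1c (r 0.76), a kinase of phosphoinositides, and Pik3r5 (0.74). Atp6v1a was closest to Nceh1, a cholesteryl ester hydrolase (0.72), and Sdcbp (0.71). Ctsd was closest to Cdo1, which oxidises cysteine (0.72; median level 2.24 CPM), and Tcn2 (0.67). Lamp1 was closest to Laptm4a, a lysosomal membrane protein (0.82), and Selenop (0.77).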

How the data were processed

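Raw read counts per Ensembl gene and a filtered table of variance-stabilised log2 values were deposited by the authors for 146 libraries. Per the submitters' processing notes, the tools were FastQC, TopHat2 2.0.11, HTSeq 0.6.1 and DESeq2, with GRCm38 (mm10); the annotation release and the strand setting of counting are not given in the sources used here. Gene names came from GENCODE M21, which matched 21822 of 22721 IDs; the 899 others held 0.16% of counts. The members and gene lists were chosen with earlier results of these data known. CPM is the count over the library's total. Differences between labelled sexes (plate as covariate), plates and their interaction were tested on counts with edgeR 4.0.16 (quasi-likelihood, TMM, filterByExpr; R 4.3.3), with limma 3.58.1 voom and DESeq2 1.42.0 as alternatives. Associations were tested with limma on the log2 values with plate and sex as covariates and the predictor z-scored, p-values being Benjamini-Hochberg adjusted over all genes (threshold 0.05). Correlations used residuals on plate and sex. The fits were also run on simulated data with independent libraries and no plate or date effects. That run does not bear on such effects in the real libraries. Shared sequence was the share of exon stretches of 50 bases, 1 in 8 sampled, that occur in another gene's transcripts; 20% was taken as uncertain. Genes named were the 6 extremes of level, spread and rho, the closest pair of each group, members and list genes first by p, and the 10 highest, 6 lowest and 3 closest partners; Glb1's neighbours were chosen after the values were seen. Nothing in the labels says more of the mice than 1 library each, so p-values measure the spread between these libraries. Alternatives changed normalisation, filter, tool, batch term, scale, covariates and libraries. Results for a few genes outside the list are not reported here.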

Additional observations from a re-analysis of the deposited data

How the results depend on the processing

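No paired analysis was possible because the replicate numbers only follow accession order and mark no shared mouse, litter or day. The count of members differing between labelled sexes, 0, became 4 without the 6 libraries whose Y-linked counts went against their label (7.69% of all genes). With lane within plate in place of plate it was 3 (Tcirg1, Ctsl and Ctsc), against 7.86% of all genes. It was 1 with date label in place of plate (Tcirg1), against 5.52%, and 1 with limma voom (Atp6v1a), against 5.95%. The count of members associated with Tfeb, 25, became 1 with 5 principal components of the non-member genes as covariates. The share of all genes went from 57.3% to 8.69%. The median rho over all member pairs, 0.17, was 0.12 on log2(CPM + 1) values. With 5 components removed the cathepsin median went from 0.15 to 0.33 and the membrane protein median from 0.34 to 0.19, and with 1 component the glycosidase median went from 0.10 to 0.27. With 5 components as covariates the slope of Gm2a on Ctsd turned to 0.032, and those of Atp6ap2 and Gusb on Lamp1 to 0.036 and 0.063; with 1 component the last pair of slopes were 0.065 and 0.051. The cause of these changes was not tested. Leaving out female 51 was an alternative chosen after seeing the data. It gave 0 members for sex and 40 for plate, against 4.28% and 74.3% of all genes. For Atp6v1a, Ctsd, Lamp1 and Tfeb it gave 23, 32, 30 and 26, against 35.8%, 39%, 60.9% and 57.1% of all genes. The smallest count of a member was 153, for Atp6v0c, and the part of counting error in the spread of the members was not tested.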
